A study of Mus musculus with 5 samples.

Results

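The genes described here are 33 p53 pathway and apoptosis genes, named by symbol, whose mRNA was compared between mouse embryonic stem (ES) cells with and without induction of a Satb1 transgene. A gene counted as measured when a probe set on the array carried its symbol and no other, which held for 29 of the 33 genes among 19938 genes in all. Array values of Trp53, Gdf15 and Bax were not analysed here. Cdkn1a, the gene of the cell cycle inhibitor p21, was also left out, because its probe set carries the symbol of a second gene. The remaining genes were 2 of the p53 circuit (Mdm2 and Mdm4), 13 p53 targets, 9 members of the BCL2 family and 5 genes of death receptor and caspase signalling.

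RNA was measured on 5 microarrays. All cells were mouse ES cells labelled tetO-Satb1, meaning a Satb1 transgene driven by a promoter that doxycycline (DOX) switches on, grown with serum and LIF, the cytokine that keeps ES cells self-renewing. The uninduced group, labelled control, had 2 arrays of cells without DOX, and the induced group, labelled as overexpressing Satb1, had 3 arrays of cells given DOX for 24 h, with RNA prepared 48 h after passaging in both. The comparison asks how transcripts differ when Satb1, whose nuclear protein attaches to AT-rich stretches of DNA, is overexpressed. No cells without the transgene were given DOX, so an effect of DOX itself cannot be told apart from an effect of SATB1, and the labels do not say which DOX-dependent activator the cells carried or whether arrays of a group were separate clones or cultures. Spread between arrays of a group, on which the p-values rest, may therefore be technical.

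The transcription factor p53 is held at a low level by the ubiquitin ligase MDM2 and its partner MDM4, and DNA damage or other stress releases it. It then switches on genes for cell cycle arrest, DNA repair and antioxidant defence, and also genes of the BCL2 family that promote cell death. In that family, BCL2, BCL-XL and MCL1 protect mitochondria, the BH3-only proteins oppose them, and BAX and BAK open the outer membrane, after which APAF1 activates caspase 9. Mouse ES cells are known for a weak G1 arrest after DNA damage and for a ready apoptotic response.

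The induced gene separated the groups. Satb1 had log2 levels of 4.95 and 5.34 uninduced and 8.61, 8.79 and 8.68 induced, an 11.7-fold difference (adjusted p = 0.229 in limma over all genes, and 0.00384 with the spread taken from genes with 5 distinct values). That second spread is used below for the intervals and where it is named. The deposited values hold exact ties between arrays, so that many genes have too little spread within a group. Standard errors below come from limma over all genes and can be too small. For Bak1 it was 0.037 there and 0.062 with the second spread, while for Perp it was 0.14 and 0.12. The mean of 9 ES cell markers was 9.27 and 9.322 uninduced and 9.285, 9.272 and 9.269 induced. Single markers differed. Pou5f1 was at 9.86 and 9.93 uninduced and 9.92, 9.93 and 9.96 induced, and Zfp42 at 6.34 and 6.34 against 6.35, 6.42 and 6.23. Tdgf1, at 11.23 and 11.29 against 11.07, 11.09 and 11.01, was lower on every induced array, an arrangement found in 3.08% of all genes. The mean of 23 fibroblast genes, listed for the irradiated feeder cells of the culture, was 5.390 and 5.397 without DOX and 5.390, 5.419 and 5.415 with DOX. Genes of this list went different ways. Lox was at 4.81 and 4.76 uninduced and 4.59 on each induced array, and Acta2 at 7.17 and 7.34 against 7.41, 7.62 and 7.26. Whether the mean follows the share of feeder cells was not tested. Pairs of arrays correlated at Pearson's r of 0.9972 to 0.9979 across genes, which are not independent replicates.

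To show where p53 could bind near these genes, the promoters of the members were searched for the p53 half-site. This motif reads the same on both strands, so a search of 1 strand covers both, and no other motif was searched. RefSeq promoter sequences (build GRCm38.p6, from 250 bases before to 50 after a transcript start) matched 28 of the 33 members with 41 windows. A half-site lay in 10 of these windows (24.4%), against 8.36% of all 32851 windows. The 10 windows belong to 9 genes, of which 6 were measured on the arrays, and the same Aen site is counted in more than 1 window. Since many of the members are listed because p53 is known to act on them, the share of 24.4% is a description only. A pair of half-sites with at most 13 bases between them was found in 1 member, Cdkn1a, and in 0.0731% of all windows. The sites of the 6 measured members that have one are shown because the array values below bear on these genes, with the half-site in capitals, each 5′ to 3′ on the strand of its gene:

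Mdm2 (chr10:117710925-117710954, minus strand): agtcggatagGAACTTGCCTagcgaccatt
Ccng1 (chr11:40755452-40755481, minus strand): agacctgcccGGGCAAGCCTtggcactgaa
Sesn1 (chr10:41887256-41887285, plus strand): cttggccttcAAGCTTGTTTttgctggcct
Ddit4l (chr3:137623572-137623601, plus strand): caactcccagGGGCTTGCCTgggcccctgc
Aen (chr7:78895927-78895956, plus strand): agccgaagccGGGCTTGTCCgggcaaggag
Ei24 (chr9:36797335-36797354, minus strand): cgtgcggcccGGGCATGCCC

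A match to the motif is not a binding site in these cells, and no match says only that the letters are not in the window. For Ei24 the stretch printed stops at the transcript start, although the sequence searched ran on. Across the series, 1336 measured genes had a half-site in a promoter window, and their median log2 change was 0.00. It was the same for all 15614 measured genes with a window, which include them, and for all genes. Equal medians cannot show whether some genes with a half-site changed.

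None of the 29 measured genes passed the test between induced and uninduced cells. The limma fit did not call the induced gene Satb1 either (adjusted p = 0.229), so a lack of calls in it says little about the members. In limma over all 19938 genes, 0 members were higher and 0 lower at an adjusted p under 0.05, where 2 genes were higher (0.01%) and 1 was lower (0.00502%) overall. At an unadjusted p under 0.05 the members again numbered 0 in each direction, beside 0.481% of all genes higher and 1.07% lower. The smallest unadjusted p of a member was 0.150, for Ei24. By their means, 13 members were higher, 13 lower and 3 equal in induced cells, with changes from -0.16 to 0.15 on the log2 scale and a median of 0.00. All genes together also had a median of 0.00. The median size of change was 0.038 for members and 0.031 for all genes. In bulk RNA, a change in the share of cells that express a gene and a change in the RNA per cell cannot be told apart.

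Intervals show the size of change that each fit allows. When the spread came from genes having 5 distinct values, the 95% intervals of the log2 change reached at most -0.46 downward, for Perp, and 0.35 upward, for Ei24, which are 1.37-fold and 1.27-fold. All 29 intervals thus lay inside a 1.5-fold change in either direction, as they did for 98.5% of all genes. No member passed with that spread either (adjusted p = 1 for each), and 0 had an unadjusted p under 0.05, beside 0.301% of genes higher and 0.772% lower. Ties remain in the values themselves, so the intervals may be too narrow. They also depend on the fit: in 7 of the other fits the limma interval of Perp, Ei24 or Rrm2b reached 1.5-fold, down to -0.94 for Perp without uninduced array 1 and up to 0.88 for Ei24 with the title number as a replicate block. The other 26 members stayed inside 1.5-fold in every fit that included them.

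**Figure D1:**
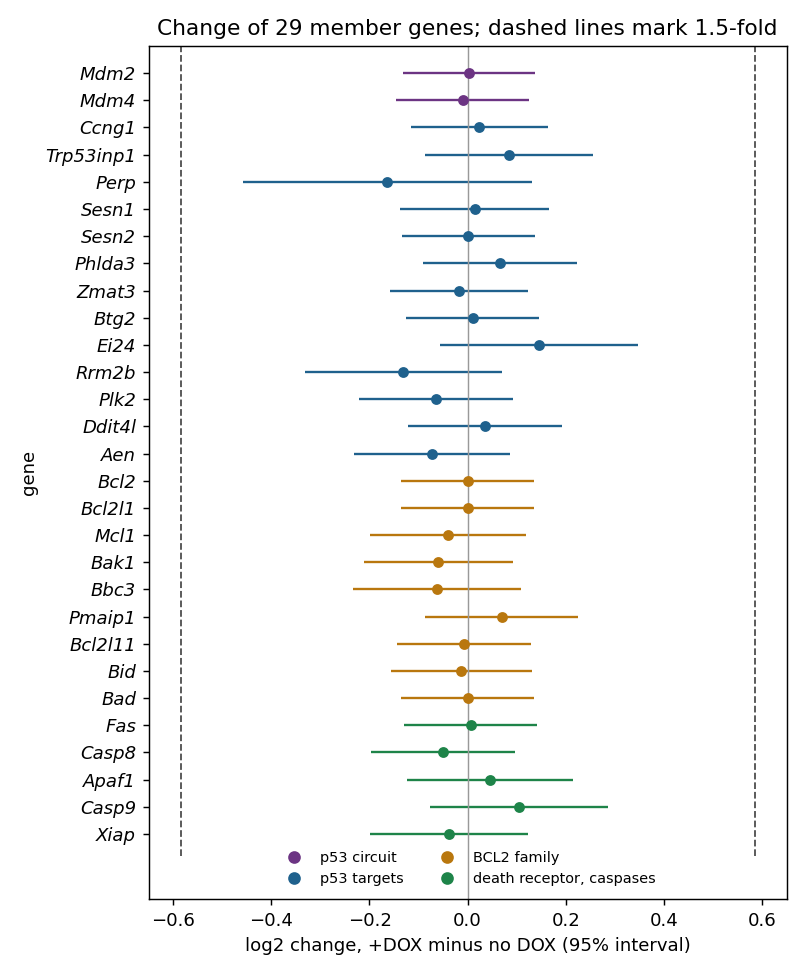
The log2 change of each of the 29 measured genes (induced minus uninduced cells, x axis) is drawn as a point with its 95% interval, its spread taken from genes having 5 distinct values, coloured by role, with dashed lines at 1.5-fold. Every interval crosses 0 and none reaches a dashed line; the widest belongs to Perp.

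Neither measured gene of the p53 circuit passed the test (adjusted p = 0.770 for each, limma). Mdm2, both a target of p53 and the ligase that degrades it, was at 7.48 on all 5 arrays to 2 decimals, with a log2 change of 0.0028 and an interval from -0.13 to 0.14. Its half-site window is shown above. Mdm4, which binds p53 and blocks its activity, was at 7.73 and 7.71 uninduced and at 7.71 on each induced array. In both genes 4 of the 5 arrays had exactly the same value and uninduced array 1 alone differed.

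Some p53 targets, such as Mdm2, Bbc3, Pmaip1 and Apaf1, are counted only in their own groups. Among the 13 p53 targets counted here, 8 had a higher and 5 a lower mean in induced cells, and the median log2 change was 0.011. The mean level of these targets was 6.642 and 6.685 uninduced and 6.656, 6.668 and 6.651 induced. Every induced array thus lay between both uninduced arrays.

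Ei24, which encodes a membrane protein of the endoplasmic reticulum, had the largest positive change. Its log2 level was 7.20 and 7.32 uninduced and 7.51, 7.38 and 7.33 induced, or 7.26 ± 0.086 (SD, n = 2) against 7.41 ± 0.10 (SD, n = 3). The change of 0.15 ± 0.079 (standard error) is 1.11-fold and did not pass (adjusted p = 0.770, limma). It ran from 0.086 to 0.21 as single arrays were left out. It was the 1 member whose induced arrays all lay above both uninduced arrays, a pattern found in 1.65% of all genes, and induced array 3 exceeded uninduced array 2 by only a small step.

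Perp, a desmosome-associated p53 target with a part in apoptosis, was the most variable member. It was at 6.19 and 6.40 uninduced and at 5.94, 6.27 and 6.19 induced, so that the groups overlapped and induced array 1 was the low one. The change of -0.16 ± 0.14 (standard error) ran from -0.27 to -0.054 as single arrays were left out. With the feeder mean as a covariate it was -0.33, with a limma interval from -0.60 to -0.063, which excludes 0. Perp did not pass in that fit either (adjusted p = 0.391, limma). The feeder mean was higher on induced arrays 2 and 3 than on either uninduced array, so the covariate is partly tied to DOX.

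Rrm2b, the p53-inducible subunit of ribonucleotide reductase that supplies nucleotides for repair, was at 5.89 and 5.68 uninduced and 5.68, 5.68 and 5.60 induced. Uninduced array 1 was high, and uninduced array 2 had the level of both induced arrays 1 and 2. The change was -0.13 ± 0.079 (standard error), with -0.028 when uninduced array 1 was left out and -0.23 when uninduced array 2 was.

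Trp53inp1, a stress-induced regulator of p53 and autophagy, showed the opposite arrangement. It was at 8.69 and 8.86 uninduced and at 8.87, 8.86 and 8.86 induced, so that its change of 0.084 ± 0.056 (standard error) came from uninduced array 1 being low. Phlda3, a repressor of AKT signalling, was at 6.14 and 6.11 uninduced and 6.14, 6.26 and 6.17 induced, with a change of 0.066 ± 0.043. Aen, an apoptosis-enhancing nuclease, was at 6.31 and 6.43 against 6.31, 6.27 and 6.31, with a change of -0.072 ± 0.044. In all 3 genes an induced array had the level of an uninduced one.

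The cyclin G1 gene Ccng1, a p53 target with a half-site shown above, was close to 10.13 on 4 of the 5 arrays. Its level was 10.08 and 10.13 uninduced and 10.13, 10.12 and 10.14 induced, a change of 0.024 with an interval from -0.12 to 0.16. Btg2, an antiproliferative gene, was at 5.66 and 5.68 uninduced and at 5.68 on each induced array. The sestrin genes, whose products curb oxidative stress and mTORC1, also changed little, with Sesn1 at 4.70 and 4.70 against 4.77, 4.70 and 4.67 and Sesn2 at 6.42 on each array except induced array 1, at 6.43.

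The other 3 targets gave changes between -0.064 and 0.036. The polo-like kinase gene Plk2 was at 6.28 and 6.40 uninduced and 6.28, 6.28 and 6.27 induced. Zmat3, which encodes an RNA-binding zinc finger protein, was at 6.63 on 4 arrays and at 6.58 on induced array 3. Ddit4l, an inhibitor of mTORC1, was at 6.14 on 4 arrays and at 6.24 on induced array 3. In Zmat3 and Ddit4l, then, a single induced array set the whole change.

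**Figure D2:**
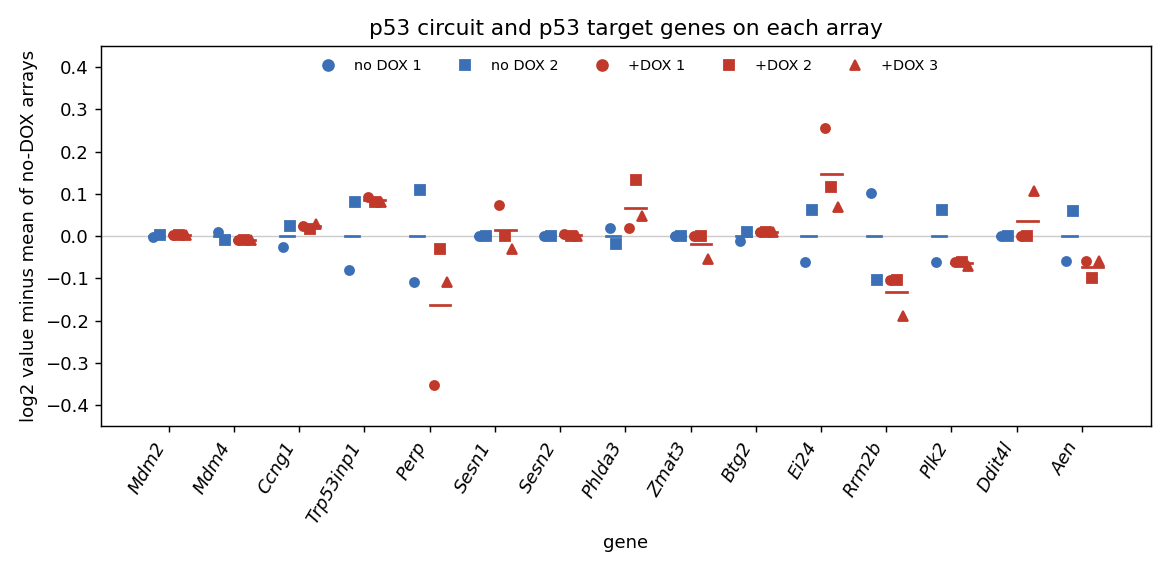
Each point is the log2 value on 1 array minus the mean of the 2 uninduced arrays (y axis), for Mdm2, Mdm4 and 13 p53 targets (x axis), with blue for uninduced and red for induced arrays and short lines for group means. Perp spreads most, with induced array 1 lowest, and Ei24 is the gene whose 3 induced arrays all lie above the uninduced ones.

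Changes in the BCL2 family ran from -0.062 to 0.069. Of 9 measured members, 1 had a higher mean, 5 a lower mean and 3 the same value on all arrays, with a median log2 change of -0.0077. The family mean was 6.071 and 6.095 uninduced and 6.067, 6.069 and 6.075 induced. Induced array 3 lay between both uninduced arrays, and induced arrays 1 and 2 lay just below both.

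Of the pro-survival genes, Bcl2 was at 4.61 on all 5 arrays and Bcl2l1, the gene of BCL-XL, at 6.30 on all 5. Mcl1, whose short-lived product guards mitochondria in many cell types, was at 9.76 and 9.75 uninduced and 9.75, 9.75 and 9.64 induced. Its change of -0.040 came from induced array 3, since without that array it was -0.0025. A value repeated exactly on all arrays, as in Bcl2, Bcl2l1 and the BH3-only gene Bad at 5.07, was found in 15.1% of all genes and carries little information on the spread.

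The effector gene Bak1, whose product forms pores in the outer mitochondrial membrane, was at 5.84 and 5.92 uninduced and 5.78, 5.84 and 5.84 induced, a change of -0.060 ± 0.037 (standard error). Of the BH3-only genes, Bbc3 and Pmaip1, both known to be induced by p53, gave changes of opposite sign. Bbc3, the gene of PUMA, was at 4.28 and 4.31 uninduced and 4.28, 4.14 and 4.28 induced, a change of -0.062 ± 0.056. Pmaip1, the gene of NOXA, was at 5.95 and 6.06 uninduced and 6.06, 6.06 and 6.11 induced, a change of 0.069 ± 0.042. All 3 genes overlapped between the groups, and none passed (adjusted p = 0.770 for each, limma).

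The remaining BH3-only genes moved by less. Bcl2l11, the gene of BIM, was at 6.55 on 4 arrays and 6.52 on induced array 1. Bid, whose product links death receptors to mitochondria, was at 6.28 and 6.28 uninduced and 6.23, 6.30 and 6.28 induced. Its induced arrays lay on both sides of the uninduced value.

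Death receptor and caspase genes also gave no call. Of the 5 genes, 3 had a higher and 2 a lower mean, with a median log2 change of 0.0059. Their mean was 5.294 and 5.346 uninduced and 5.360, 5.330 and 5.311 induced, so the groups overlapped.

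Casp9, the initiator caspase of the mitochondrial route, had the largest change of this group. It was at 5.74 and 5.92 uninduced and at 5.92, 5.92 and 5.97 induced, a change of 0.10 ± 0.064 (standard error, adjusted p = 0.770 in limma). Uninduced array 1 was the low one, and the change was 0.017 without it and 0.19 without uninduced array 2. Apaf1, the scaffold on which caspase 9 is activated, was at 6.74 on 4 arrays and 6.88 on induced array 1.

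Fas, the death receptor gene, was at 3.58 on 4 arrays and 3.60 on induced array 1. Casp8, the initiator caspase that death receptors recruit, was at 4.30 and 4.38 uninduced and 4.30, 4.30 and 4.27 induced. Xiap, an inhibitor of caspases, was at 6.11 on 4 arrays and 5.99 on induced array 3. In Apaf1, Fas and Xiap a single array again set the change.

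**Figure D3:**
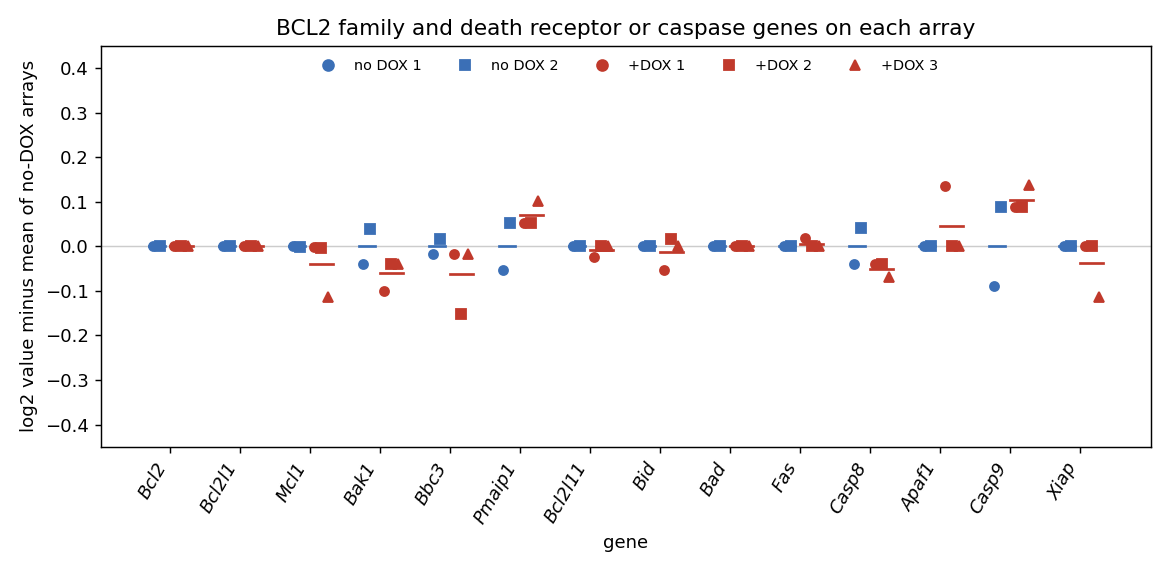
Each point is the log2 value on 1 array minus the mean of the 2 uninduced arrays (y axis), for 9 BCL2 family genes and 5 death receptor or caspase genes (x axis), with blue for uninduced and red for induced arrays and short lines for group means. No gene has its 3 induced arrays all above or all below both uninduced arrays, and Bcl2, Bcl2l1 and Bad do not vary at all.

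In 10 of the 29 members (34.5%) 1 array differed while the other 4 were identical, against 27.6% of all genes. These were uninduced array 1 in Mdm2, Mdm4 and Btg2, induced array 1 in Sesn2, Bcl2l11, Fas and Apaf1, and induced array 3 in Zmat3, Ddit4l and Xiap. Only Perp, Ei24, Rrm2b and Casp9 had a range above 0.2 over the 5 arrays, and the median range was 0.11 for members and for all genes.

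Leaving out an uninduced array changed the count of calls. Without uninduced array 1, Plk2 passed as lower (log2 change -0.13, adjusted p = 0.0105, limma), which is 3.45% of members beside 4.43% of all genes called higher, 5.5% called lower and 9.93% in either direction. Without uninduced array 2, Trp53inp1 (0.17, adjusted p = 0.00854) and Btg2 (0.022, adjusted p = 0.00345) passed as higher and Mdm4 (-0.019, adjusted p = 0.00452) as lower, or 10.3% of members beside 5.27% of genes called higher, 4.65% called lower and 9.93% in either direction. In these fits a lone uninduced array is assumed to vary like the induced ones, which often hold identical values. With induced array 1, 2 or 3 left out, 0 members passed, and 0 passed with the feeder mean as a covariate, where the lowest adjusted p of a member was 0.346 (limma).

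Further genes of the pathway gave no call either. Of 76 measured genes in 4 lists, 0 passed in limma over all genes, while at an unadjusted p under 0.05 there were 0 higher and 3 lower, beside 0.481% and 1.07% of all genes. Other p53 targets numbered 23, with 5 higher, 13 lower and 5 equal means and a median log2 change of -0.0087. The members with the smallest p were Tigar, a regulator of glycolysis and redox balance, and Gadd45a, a DNA damage response gene.

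Tigar was at 7.00 and 6.91 uninduced and 6.84, 6.80 and 6.75 induced, a change of -0.16 ± 0.047 (standard error). Gadd45a was at 8.52 and 8.57 uninduced and 8.35, 8.40 and 8.46 induced, a change of -0.14 ± 0.042. In both, all induced arrays lay below both uninduced arrays, an arrangement found in 3.08% of all genes. A choice by smallest p favours this arrangement, and neither gene passed (adjusted p = 0.770 for each, limma). No gene of the 29 members had this arrangement.

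The p53 family and its regulators comprised 24 measured genes, of which 7 had higher, 13 lower and 4 equal means, with a median of -0.0026. Atr, a kinase that senses replication stress, was at 6.58 and 6.50 uninduced and at 6.40 on each induced array, a change of -0.14 ± 0.029 (standard error). Chek2, the checkpoint kinase that phosphorylates p53, was at 7.29 and 7.30 against 7.27, 7.22 and 7.20, a change of -0.065 ± 0.023. Atr and Chek2 are named because they had the smallest p of the 24 genes. Both had their induced arrays below the uninduced ones, an arrangement found in 3.08% of all genes. A choice by smallest p favours it, so it says little about the regulators as a list. Neither gene passed (adjusted p = 0.770 for each, limma).

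Other BCL2 family genes (9 measured) had a median log2 change of 0.00, with 4 higher, 3 lower and 2 equal means. Bik, a BH3-only gene, was at 4.98 and 5.25 uninduced and 4.93, 4.98 and 4.98 induced, and Bcl2l12 was at 5.77 and 5.82 against 5.82 on each induced array. Other caspase pathway genes (20 measured) also had a median of 0.00, with 7 higher, 8 lower and 5 equal means. Fadd, the adaptor between death receptors and caspase 8, was at 5.01 and 5.24 uninduced and 4.94, 5.01 and 5.01 induced, and Casp2 had a change of -0.017. The groups overlapped in all 4 of these genes.

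**Figure D4:**
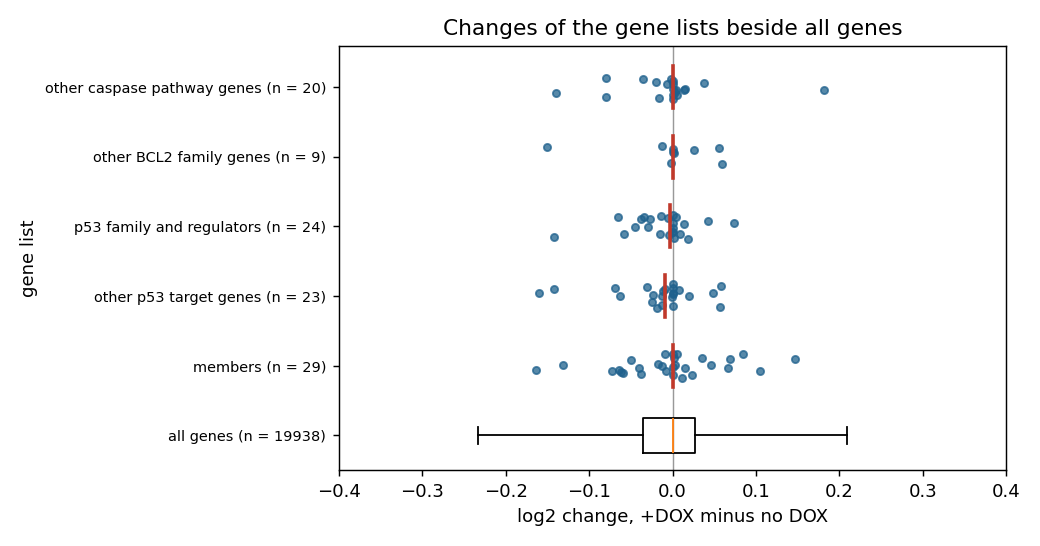
Each point is the log2 change (induced minus uninduced cells, x axis) of a gene in the lists named on the y axis, red lines are list medians, and the box for all 19938 genes shows the quartiles with whiskers at the 1st and 99th percentiles (-0.23 and 0.21). All points of the 5 lists lie within these whiskers; Satb1, at 3.55, is beyond the axis.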

How the data were processed

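The authors deposited log2 values of 35557 probe sets on 5 arrays, made with RMA, per the submitters' processing notes (no version is given). The scale was read from the values, 0.789 to 13.1. The array's annotation table gave 1 symbol to 21789 probe sets, several to 1621 and none to 12147. The probe set with the highest mean stood for a gene, and each measured member had 1. Genes were tested with limma 3.58.1 in R 4.3.3 (lmFit, eBayes without trend, no filter, Benjamini-Hochberg over 19938 genes). Exact ties are frequent: 1800 genes (9.03%) had 5 distinct values. An alternative took limma's prior (SD 0.086, 2.87 degrees of freedom) from these, against 0.0050 and 0.467 over all genes. Precision is limited by the number of arrays.

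The members, lists and alternatives were chosen with earlier results of these data known. All measured members are named, plus Satb1 and, per pathway list, genes passing and the 2 with the smallest p. A few listed pathway genes are not reported here. Means of the other marker lists (primitive endoderm, trophectoderm, neuroectoderm, mesendoderm) lay between 4.251 and 5.094 on every array.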

Additional observations from a re-analysis of the deposited data

How the results depend on the processing

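Each measured member had 1 probe set, so taking the mean of all probe sets could not change its values. With 0 members passing at 0.05, a threshold of 0.01 could add none. The counts of members passing, 0 higher and 0 lower, held with genes above the median level (24 members), centred arrays and repeated quantile normalization. They also held with eBayes with trend and robust, the spread from genes with 5 distinct values, untied genes (5 members) and the feeder covariate. With single arrays left out they ran from 0 to 2 higher and from 0 to 1 lower, and the pathway lists from 0 to 11 of 76 genes. These were 7 (9.21%) without uninduced array 1 and 11 (14.5%) without uninduced array 2, beside 9.93% of all genes in either fit, and 0 without any 1 induced array. In the fits with 1 uninduced array, the spread rests on induced arrays alone, and these often hold identical values. The median change of the p53 targets was 0.045 and that of the BCL2 family -0.040 with untied genes, which leave 4 genes and 1 gene, and none of the death receptor and caspase genes. The median of the latter was 0.045 among genes above the median level, where 3 remain. Under any alternative, the sign turned in at most 2 members, none of which passed there. The title numbers were not shown to pair arrays (correlations of deviations -0.00633 and 0.00631). With the number as a replicate block 0 members passed. The medians were 0.0025 for p53 targets, -0.0025 for the BCL2 family and 0.0089 for death receptor and caspase genes. Only induced array 3 had the number 3, so the block took up that array. Its medians are those of the fit without induced array 3, and it is not a separate check of them. No probe set signal over background is given, so low genes cannot be told from unexpressed ones.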
